A study of Mus musculus with 5 samples.

Results

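Huntingtin, the protein whose expanded glutamine tract causes Huntington's disease, and 7 proteins of its interaction network were followed through H3K9ac ChIP-seq peaks at their genes. The 8 genes are Htt, Hap1, Hip1, Hip1r, Zdhhc17, Rasd2, Dctn1 and Pacsin1, chosen by name among the 22380 protein-coding genes of the GENCODE vM1 annotation (mm9). Their peaks were those centred no farther than 10 kb from one of their annotated transcript starts. This gave 19 of the 34286 peaks in the list of DOP-treated cells (the DOP list) and 17 of the 33355 peaks in the list of untreated cells (the untreated list).

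The samples were STHdh Q111 cells, a conditionally immortalized line of mouse striatal progenitors on a C57BL/6 background that carries mutant huntingtin (STHdhQ111/Q111, named for the length of its glutamine tract). DOP-treated cells (2 samples) spent 24 h without serum in 4 mM 4-deoxypyridoxine hydrochloride, an inhibitor of the sphingosine-1-phosphate lyase SPL. Untreated cells (2 samples, labelled SST) spent the same time without serum in vehicle, and 1 IgG sample served as negative control. The authors deposited 1 peak list per condition, so no difference between the lists has a replicate check, the depth per sample is unknown, and no p-value is given. Each peak carries a score whose definition the lists do not state. It is used here as a rank within its own list and, in a later measure, as a sum per gene. For a peak, a percentile of 90 means that about 90% of the peaks of that list scored lower. Median scores were 419 with DOP and 400 without.

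Acetylation of histone H3 at lysine 9 marks the nucleosomes around the start sites of active genes, and it is removed by histone deacetylases. Huntingtin is a scaffold for vesicle transport and endocytosis. HAP1 couples it to the dynein and dynactin motor, of which DCTN1 (p150Glued) is the largest dynactin subunit. HIP1 and HIP1R bind clathrin at endocytic coats, PACSIN1 binds dynamin at endocytic membranes, ZDHHC17 attaches palmitate to huntingtin, and RASD2 (Rhes) is a small GTPase enriched in the striatum that binds the mutant protein.

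The labelled cell type was checked with marker genes, for which a peak shows acetylation near the gene and not its transcript. Of 7 neural progenitor markers, Vim, Msi1 and Notch1 had peaks in both lists, Fabp7 had a DOP-treated peak only, and 3 had none. Of 14 striatal markers, 4 had peaks in both lists (Dlx1, Foxp1, Ebf1 and Ppp1r1b), Dlx2 and Foxp2 in the DOP list only, and 8 had none. All 3 fibroblast markers (Col1a1, Col1a2 and Pdgfra) had peaks in both lists. Of the other types, 1 of 3 microglia markers (Aif1) and 1 of 4 oligodendrocyte markers (Mog) had peaks in both lists, while 0 of 3 astrocyte and 0 of 3 endothelial markers did. DOP-only peaks lay at Slc1a3, a marker of astrocytes, at Mbp of oligodendrocytes and at Kdr of endothelium. Over all protein-coding genes, 55.3% had peaks in both lists. The defining progenitor markers Nes, Sox2 and Pax6 were without a peak, and the cells are called here by the name of the line.

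The sequences just before the start sites are shown first, since the genes without a peak did not have CpG-poor promoters. Each line gives the 200 bases before the most upstream start, on the strand of the gene (mm9), with CG pairs in capitals. Htt (chr5:35104189-35104388, plus strand) and Zdhhc17 (chr10:110447123-110447322, minus strand) had peaks in both lists, whereas Rasd2 (chr8:77737643-77737842, plus strand) and Pacsin1 (chr17:27792254-27792453, plus strand) had none.
Htt: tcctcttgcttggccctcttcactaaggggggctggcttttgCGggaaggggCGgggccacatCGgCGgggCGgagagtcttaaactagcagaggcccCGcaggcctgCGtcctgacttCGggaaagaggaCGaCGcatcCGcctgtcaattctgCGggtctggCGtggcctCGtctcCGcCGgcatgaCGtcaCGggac
Zdhhc17: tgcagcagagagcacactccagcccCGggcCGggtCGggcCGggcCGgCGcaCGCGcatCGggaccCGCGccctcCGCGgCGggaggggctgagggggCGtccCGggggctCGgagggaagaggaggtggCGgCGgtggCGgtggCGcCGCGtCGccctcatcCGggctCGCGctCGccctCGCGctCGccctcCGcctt
Rasd2: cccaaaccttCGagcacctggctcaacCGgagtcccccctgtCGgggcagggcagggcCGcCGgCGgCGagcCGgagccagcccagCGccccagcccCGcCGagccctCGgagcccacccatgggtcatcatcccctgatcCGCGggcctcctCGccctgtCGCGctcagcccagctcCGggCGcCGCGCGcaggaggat
Pacsin1: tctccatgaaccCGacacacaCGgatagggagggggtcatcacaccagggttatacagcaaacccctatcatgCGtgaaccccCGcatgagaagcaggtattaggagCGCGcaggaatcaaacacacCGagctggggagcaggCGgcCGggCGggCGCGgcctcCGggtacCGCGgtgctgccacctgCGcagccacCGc
These stretches hold 18 CG pairs at Htt, 32 at Zdhhc17, 22 at Rasd2 and 17 at Pacsin1.

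Peaks were found at 6 of the 8 genes in each list, namely Htt, Hap1, Hip1, Hip1r, Zdhhc17 and Dctn1. The share of all protein-coding genes with a peak was 57.7% with DOP and 56.9% without. Rasd2 and Pacsin1 had no peak in either list, as was the case for 40.7% of all genes. None of the 8 genes had peaks in only 1 list, which was rare over all 22380 genes (535 with DOP only and 362 without DOP only). Of the peaks, 16 of the 19 DOP-treated and 15 of the 17 untreated peaks were centred within 1 kb of a start of the gene itself, and 10 and 11 of these lay at or downstream of the start. The exceptions were 1 peak of Hip1r in each list and the peaks far upstream of Dctn1. The plot of peak positions shows where the peaks lie around the start sites. All 6 genes had a peak within 1 kb of a start in both lists. So did 11094 of the 12375 protein-coding genes with a peak in both lists. The share of all peaks near protein-coding genes that lie within 1 kb is not given here.

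**Figure D1:**
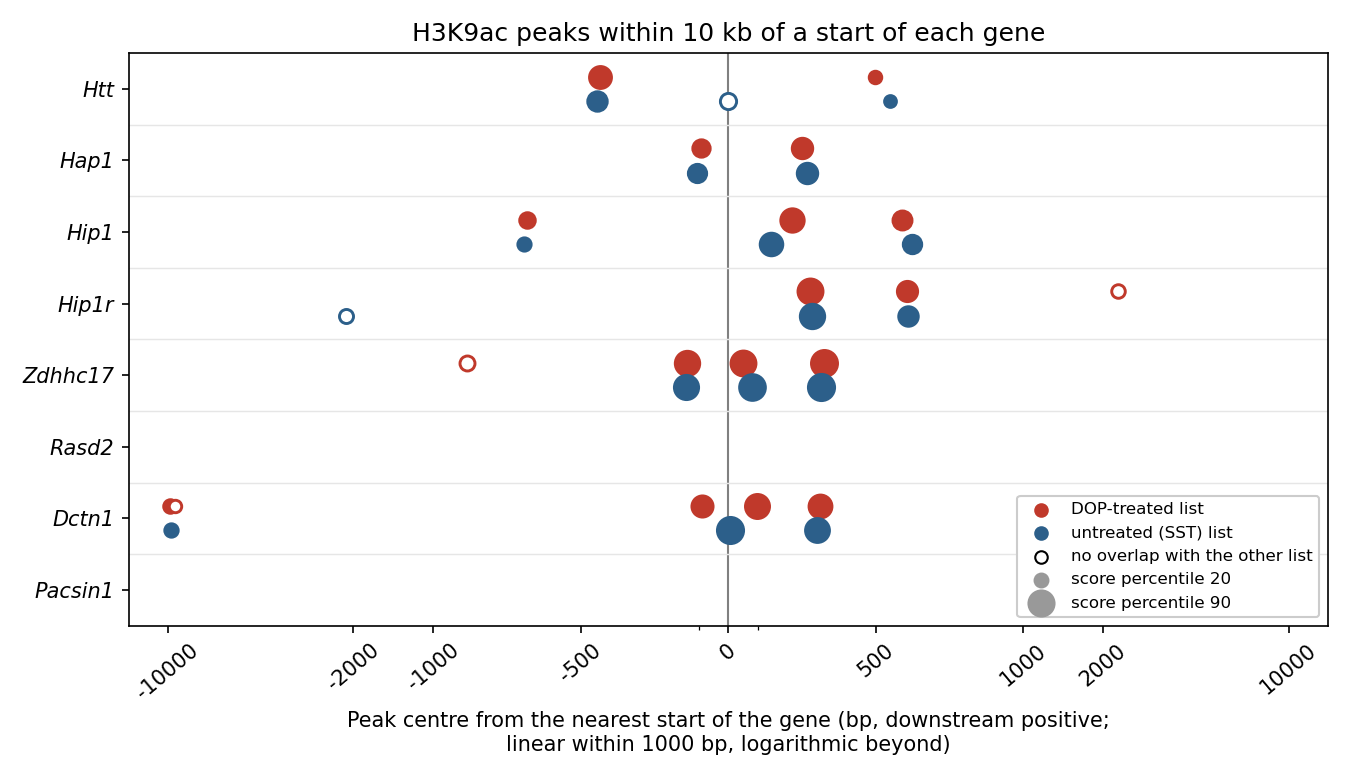
Peaks assigned to each gene by their distance in bp from the nearest start of the gene (x axis, linear within 1 kb and logarithmic beyond), with the DOP list in red above the untreated list in blue. The size of a point gives its score percentile and open points are peaks that overlap no peak of the other list. The 6 genes with peaks have most of them within 1 kb of a start, while the rows of Rasd2 and Pacsin1 are empty.

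Htt itself (ENSMUSG00000029104.8) lies on chromosome 5 from 35104389 to 35255183 (plus strand, 7 annotated starts). The DOP list held 2 peaks here and the untreated list 3. The highest-scoring peak of both lists lay upstream of the gene, centred 434 bp before the first start with DOP and 445 bp before it without, so the centres were 11 bp apart. Its score was 540 (percentile 61.8) in the DOP list and 373.5 (percentile 47.1) in the untreated list. The weakest peak of both lists lay in the intron after the first exon, centred at 35104937 with DOP (percentile 15.1) and at 35104986 without (percentile 12.6). Both lists thus had a peak on either side of the first exon.

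Between these positions only the untreated list held a peak. It ran from 35104340 to 35104539 and its centre fell on the annotated start at 35104439, in the 5' UTR, with a score of 238.5 at percentile 30.3. The nearest DOP-treated centre was 484 bp away. The upstream peak of the DOP list, which scored highest at Htt and does not touch the transcript, has this sequence with CG pairs in capitals (chr5:35103856-35104055, plus strand).
Htt upstream peak: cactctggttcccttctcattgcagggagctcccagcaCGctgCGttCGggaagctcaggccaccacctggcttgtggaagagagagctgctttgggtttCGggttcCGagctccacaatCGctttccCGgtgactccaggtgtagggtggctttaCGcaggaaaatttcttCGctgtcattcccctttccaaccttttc
It holds 9 CG pairs, as does the upstream peak of the untreated list, against 20 in the untreated peak over the start.

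The glutamine tract that is expanded in these cells is encoded in exon 1. In the mm9 reference it is a run of 7 CAG or CAA codons in a coding exon (chr5:35104607-35104627, plus strand), shown here in capitals with the neighbouring codon on each side.
Htt glutamine codons: tttCAGCAGCAACAGCAGCAGCAGcca
No peak interval of either list covered this run. The nearest centres were 310 bp from its end in the DOP list and 168 bp from its start in the untreated list. The tract is longer in these cells than in the reference to which the reads were aligned, and whether this moved a peak was not tested.

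Hap1 (ENSMUSG00000006930.8), which encodes huntingtin-associated protein 1 and lies on chromosome 11 from 100208641 to 100217455 (minus strand), had the same 2 peaks in both lists. The stronger peak lay in a coding exon, 249 bp downstream of a start with DOP and 267 bp downstream without. It ranked at percentile 52.7 in the DOP list and 52.8 in the untreated list. The weaker peak was centred 93 bp before the most upstream start with DOP (percentile 35.9) and 107 bp before it without (percentile 40.7). Each pair overlapped, and Hap1 was the gene whose highest percentile differed least between the lists.

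Hip1 and Hip1r encode related clathrin adaptors, and both lie on chromosome 5. Hip1 (ENSMUSG00000039959.8, 135882393 to 136020992, minus strand) had 3 peaks in each list, each of them overlapping its counterpart. The strongest was centred 216 bp downstream of the single annotated start with DOP (score 667.3, percentile 71.4) and 145 bp downstream without (score 569.9, percentile 66.1). The other pairs lay in the intron at percentiles 44.5 and 41.4, and 683 and 691 bp upstream of the start at percentiles 27.4 and 17.9. Hip1 was also the one gene here with a strong shared peak far inside its body, as an intronic site 56253 bp downstream of the start with DOP and 56237 bp without ranked at percentiles 62.9 and 61.7. That site lies outside the 10 kb window and was not counted.

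Hip1r (ENSMUSG00000000915.9, 124423637 to 124453220, plus strand) had 3 peaks in each list, of which 2 were shared. The strongest lay in an intron 277 bp downstream of the first start with DOP (score 877.2, percentile 82.5) and 284 bp downstream without (score 756.7, percentile 78.1). The next were centred 4 bp apart, at percentiles 51.5 and 47.4. The remaining peaks differed. The DOP list held an intronic peak 2266 bp downstream of the first start at percentile 19.0, and the nearest untreated centre was 1655 bp away. The untreated list held an intronic peak 2130 bp upstream of the start of a transcript form annotated for nonsense-mediated decay, whose own 5' end the annotation marks as not found, at percentile 20.9, and its nearest DOP-treated centre was 16781 bp away.

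The strong shared peak and the one-list peaks of Hip1r are shown together because they differ in base composition (CG pairs in capitals, plus strand). The shared peak is the interval of the DOP list at chr5:124423815-124424014, the DOP-only peak is at chr5:124425804-124426003, and the untreated-only peak is at chr5:124442585-124442784.
Hip1r shared: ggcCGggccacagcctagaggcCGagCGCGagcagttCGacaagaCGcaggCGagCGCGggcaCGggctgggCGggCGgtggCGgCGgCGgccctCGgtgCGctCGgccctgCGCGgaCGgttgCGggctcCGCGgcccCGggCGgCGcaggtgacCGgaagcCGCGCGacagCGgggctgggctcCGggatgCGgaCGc
Hip1r DOP-only: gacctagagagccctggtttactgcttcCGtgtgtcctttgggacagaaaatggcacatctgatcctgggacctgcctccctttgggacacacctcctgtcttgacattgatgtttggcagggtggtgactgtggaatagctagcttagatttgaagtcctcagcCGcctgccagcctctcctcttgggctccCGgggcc
Hip1r untreated-only: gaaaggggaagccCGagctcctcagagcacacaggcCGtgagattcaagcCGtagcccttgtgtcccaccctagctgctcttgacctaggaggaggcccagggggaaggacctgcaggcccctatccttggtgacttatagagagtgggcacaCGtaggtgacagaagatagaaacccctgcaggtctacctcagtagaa
They hold 35, 3 and 4 CG pairs. The ratio of observed to expected CG pairs was 1.11 in the shared peak, 0.19 in the DOP-only peak and 0.24 in the untreated-only peak. Medians were 0.64 over all DOP-treated and 0.65 over all untreated peaks. These one-list peaks also lie farther from a start of the gene than the shared peak. The ratio was 0.90 in the one-list peak of Htt, 0.91 in that of Dctn1 and 0.45 in that of Zdhhc17.

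Zdhhc17 (ENSMUSG00000035798.7), the palmitoyltransferase gene, had the highest-scoring peak of the 8 genes in both lists. It lies on chromosome 10 from 110378838 to 110447122 (minus strand). Its highest peak was centred 325 bp downstream of a start with DOP (percentile 90.2) and 316 bp downstream without (percentile 91.3), in an intron. A second pair, 50 and 82 bp downstream of the same start, ranked at percentiles 82.0 and 88.0, and another pair, 141 and 142 bp upstream of the gene, at 78.3 and 76.7. The DOP list held an additional weak peak 884 bp upstream of the gene, at percentile 24.8, and the nearest untreated centre was 742 bp away. In the untreated list an intronic peak at percentile 2.02 lay far outside the window.

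Dctn1 (ENSMUSG00000031865.9), which encodes the large subunit of dynactin, lies on chromosome 6 from 83115914 to 83150111 (plus strand, 12 annotated starts). The DOP list held 5 peaks within 10 kb of its starts and the untreated list 3. At the promoter, the DOP list placed 2 peaks, one 88 bp upstream of the gene (score 486.3, percentile 56.9) and one 97 bp downstream of a start (score 744.7, percentile 75.9). The untreated list placed a single peak between them, 7 bp downstream of that start (score 1125, percentile 91.0), which overlapped both. A further pair in the intron, 312 and 302 bp downstream, ranked at percentiles 68.1 and 74.8. The other peaks lay between 9412 and 9778 bp upstream and were nearer to the starts of Wdr54 and 1700003E16Rik than to Dctn1. There the DOP list held a peak 78 bp from the start of Wdr54 (percentile 19.1) and one 104 bp from the start of 1700003E16Rik (percentile 14.7, DOP only), and the untreated list held a peak 7 bp from the start of Wdr54 (percentile 18.3). When each peak was given to the nearest gene alone, Dctn1 kept 3 DOP-treated and 2 untreated peaks.

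Rasd2 (ENSMUSG00000034472.7) lies on chromosome 8 from 77737843 to 77748012 (plus strand). The nearest peak to its starts was 103712 bp upstream in the DOP list and 103711 bp upstream in the untreated list, and neither list held a peak inside the gene. Pacsin1 (ENSMUSG00000040276.8) lies on chromosome 17 from 27792454 to 27848051 (plus strand). Its nearest peak was 20687 bp upstream with DOP (percentile 89.9) and 12805 bp upstream without (percentile 1.48). The DOP list held 1 peak inside Pacsin1, in a coding exon at percentile 2.98, and the untreated list held 0. With the depth unknown, a missing peak says only that none was called.

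Comparing the lists gene by gene, 2 of the 6 genes with peaks (Zdhhc17 and Dctn1) had more peaks with DOP and 1 (Htt) had fewer, while Hap1, Hip1 and Hip1r had equal numbers. Of the 13272 protein-coding genes that had any peak, 32.5% had more with DOP and 28.5% had fewer. At least 1 DOP-only peak was found at Hip1r, Zdhhc17 and Dctn1, against 36.7% of those genes, and at least 1 untreated-only peak at Htt and Hip1r, against 30.8%. Under the rule of 1 bp overlap, all 5 of these one-list peaks were weak, with percentiles between 14.7 and 30.3. One-list peaks made up 16.2% of the DOP-treated and 13.3% of the untreated peaks near all protein-coding genes, with median percentiles of 22.0 and 22.6. Where peaks were shared, their centres differed by a median of 16 bp for the DOP-treated peaks of these genes, against 33 bp over all genes.

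The highest percentile of a gene was higher with DOP at Htt, Hip1 and Hip1r and lower at Hap1, Zdhhc17 and Dctn1. It differed by 10 or more at 2 genes, upward at Htt by 14.7 and downward at Dctn1, where the difference was -15.1. Among the 12375 genes with a peak in both lists, 13.6% were higher by 10 or more with DOP and 7.68% were lower by 10 or more, and the SD of the difference was 8.81. Neither gene differed by 10 or more when the scores of all peaks within 1 kb of a start were summed and the sums ranked. The ranks were among the 11094 genes with such a peak in both lists, a measure chosen after the first one had been seen. The SD of the difference on this measure was 7.56, and the largest difference among the 6 genes was 5.76, at Hip1. Htt then ranked at percentile 19.3 with DOP and 24.9 without, and Dctn1 at 66.3 and 67.7. At Htt the sum was 678 over 2 DOP-treated peaks and 722 over 3 untreated peaks. At Dctn1 it was 1851 over 3 DOP-treated peaks and 1823 over 2 untreated peaks.

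**Figure D2:**
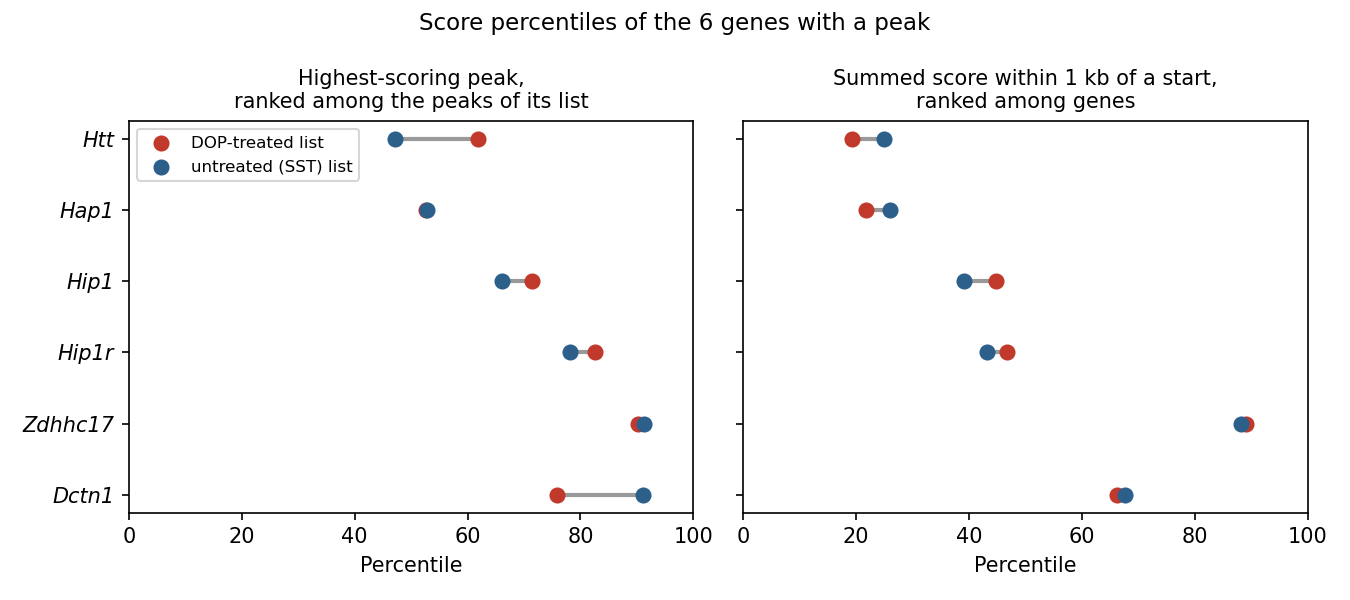
Score percentiles of the 6 genes with a peak, in the DOP list (red) and the untreated list (blue), with a grey line joining the 2 values of a gene. On the left, where the highest peak is ranked among the peaks of its list, Htt and Dctn1 have the longest lines. On the right, where summed scores within 1 kb of a start are ranked among genes, the line of Htt spans 19.3 to 24.9 and that of Dctn1 66.3 to 67.7.

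The order of the genes by summed score was the same in both lists. Zdhhc17 stood highest (percentiles 89.1 with DOP and 88.3 without), followed by Dctn1, Hip1r (46.7 and 43.2), Hip1 (44.8 and 39.1), Hap1 (21.7 and 26.1) and Htt. Without replicates it cannot be said which neighbours in this order differ beyond their spread. The median of the highest percentiles of the 6 genes was 73.7 with DOP and 72.1 without, and the corresponding medians over the 12375 genes were 79.5 and 78.3. Htt, Hap1 and Hip1 lay below the median over the 12375 genes in both lists. Dctn1 lay below it with DOP only and Hip1r without DOP only.

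CpG content was measured in the 300 bases from 250 before to 50 after the most upstream start of each gene, as the ratio of observed to expected CG pairs. The median ratio was 0.75 for genes with a peak in both lists and 0.22 for genes with none. Among the 8 genes, those with peaks ranged from 0.68 at Hip1 to 0.99 at Zdhhc17, with 0.85 at Htt. Rasd2 had a ratio of 0.81 and Pacsin1 of 0.87, which placed them at percentiles 74.4 and 81.1 of all promoters. Of the 5861 genes with a ratio of at least 0.8, a limit chosen after these values were seen, 469 had no peak in either list, Rasd2 and Pacsin1 among them.

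**Figure D3:**
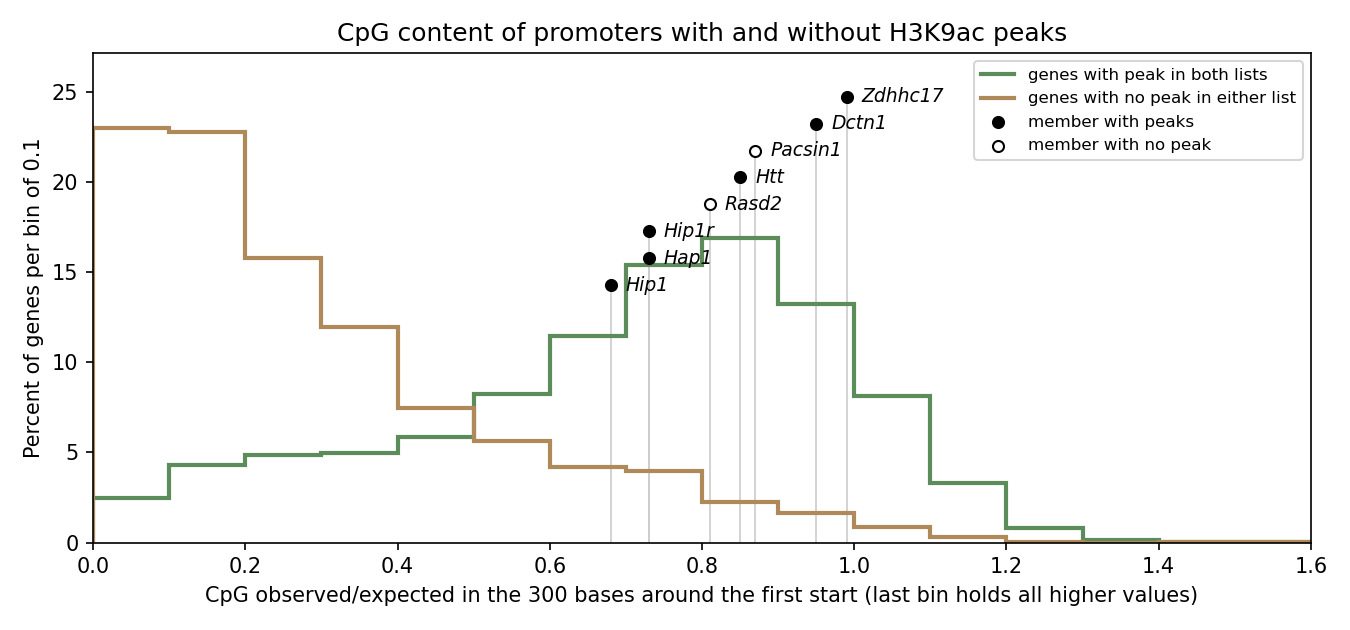
Distribution of the CpG ratio (x axis, observed over expected) in promoters of genes with a peak in both lists (green) and of genes with none (brown), as the percent of genes per bin of 0.1. Points mark the 8 genes at their own ratio, filled where the gene has peaks and open where it has none, and their height only separates the names. Rasd2 at 0.81 and Pacsin1 at 0.87 stand among the genes with peaks.

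Short sequence motifs were searched on both strands of the same 300 bases. The GC box GGGCGG occurred at 5 of the 8 genes, 4 times at Hip1r and at Dctn1, 3 times at Htt and at Hip1, and 2 times at Pacsin1, and it was found in 43.4% of 22375 promoters. It was absent from the windows of Zdhhc17, Hap1 and Rasd2. The highest-scoring peak of Zdhhc17 lies outside that window, centred 388 bp downstream of the first start with DOP and 379 bp without. That peak holds GGGCGG 2 times in each list. CCAAT was found at Hip1 and Pacsin1 and in 37.9% of all promoters. Neither CCGGAAG nor CACGTG was found at any of the 8 genes, against 10.8% and 7.78% of all promoters.

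The wider pathway was described with 3 lists of related genes, 77 in all, to be read against the 55.3% of all protein-coding genes that had peaks in both lists. Of 28 other reported partners of huntingtin, 26 had peaks in both lists, 1 (Prpf40b, encoding a splicing factor) had a single untreated peak at percentile 26.4, and 1 (Cbs, encoding cystathionine beta-synthase) had none. Of 26 subunits of dynein, dynactin and kinesin-1, 24 had peaks in both lists, whereas Dync1i1 and Dynlrb2, which encode subunits of dynein, had none. Of 23 clathrin, adaptor and endocytosis genes, 21 had peaks in both lists, whereas Snap91 and Amph, which encode endocytic proteins of the synapse, had none. Pacsin2 and Pacsin3, the relatives of Pacsin1, both had peaks, with highest percentiles of 96.2 and 97.6 with DOP and 96.4 and 95.7 without. The partners had more peaks with DOP at 9 genes and fewer at 11, the motor genes at 6 and 8, and the endocytosis genes at 4 and 8. Over all genes with any peak, 32.5% had more and 28.5% fewer. Dctn2 and Kif5a share the same 2 peaks in each list. Among those related genes with 2 DOP-treated and 3 untreated peaks as at Htt, 6 in all, the highest percentiles in the 2 lists lay nearest to those of Htt at Dctn4 (56.4 and 57.8, a Euclidean distance of 12), Ap2s1 (74.9 and 55.5, distance 15.5) and Dctn5 (70.0 and 74.0, distance 28.1).

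**Figure D4:**
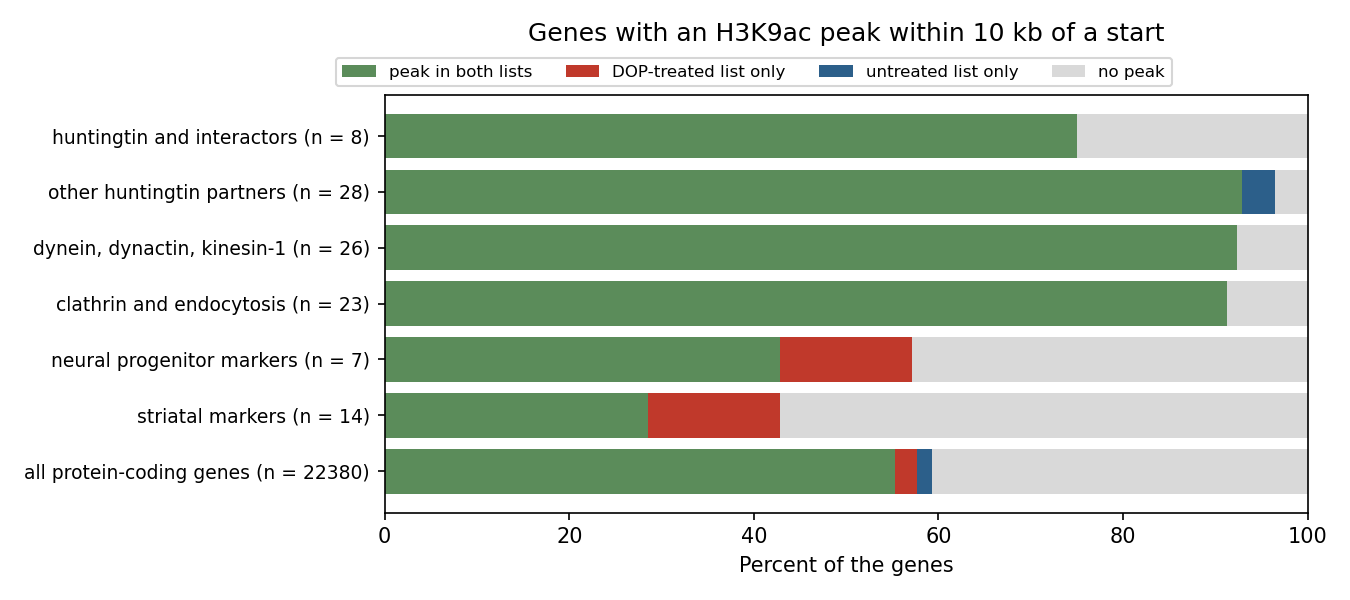
Percent of genes (x axis) with an H3K9ac peak within 10 kb of a start in both lists (green), in the DOP list only (red), in the untreated list only (blue) or in none (grey). Rows are the 8 genes, the lists of related genes, the neural progenitor and striatal markers and all protein-coding genes. Markers of the other cell types are not drawn. Green fills over 90% of each related list, 6 of the 8 huntingtin genes and 55.3% of all protein-coding genes.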

How the data were processed

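H3K9ac ChIP-seq of STHdh Q111 cells was analysed from 2 deposited peak lists, 1 for DOP-treated and 1 for untreated cells. The authors aligned single-end reads to mm9 and called peaks with GPS. The aligner is Bowtie 2 in the paper's methods and BWA 0.7.10 in the submitters' processing notes. How the 2 samples of a condition were combined, the use of the IgG sample and the threshold are not given in the sources used here. The paper reports fewer peaks for each condition than these lists hold, so the lists are not the same peak sets as those it counted. The deposited score of each peak was used as a rank, with ties at their mean rank. Scores within 1 kb of a start were also summed per gene and the sums ranked. Whether the undefined score can be added in this way is not known. No read density was analysed here. The result for 1 marker gene is not reported here.

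Start sites came from all transcripts of protein-coding genes (GENCODE vM1), and sequence from the NCBIM37 assembly, which is mm9; 0 peaks ran past a chromosome end. Peaks were shared when their intervals overlapped by at least 1 bp. The 8 genes, the related genes and the markers were chosen with earlier results of these data known, and the named genes of the related lists were those without a peak in 1 or both lists and the 3 most like Htt. Pacsin2, Pacsin3, Dctn2 and Kif5a were named outside this rule, after their values were seen. All values are descriptions, since each condition has 1 list. Alternatives were other windows (1 and 5 kb), starts of protein-coding transcripts, the nearest gene alone, the top 50% of each list, a score of at least 100, and other rules for sharing. The functions were tested on simulated peaks. Python 3.11.15 was used with numpy 2.4.6 and matplotlib 3.10.9.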

Additional observations from a re-analysis of the deposited data

How the results depend on the processing

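No paired analysis was possible because each condition has 1 peak list that carries no replicate, so leaving out a replicate was not possible either. Under every alternative run 6 genes had a peak with DOP, and 5 or 6 had one without, as Htt had 0 untreated peaks among the top 50% by score. Restricting each list to its top 50% left 11 DOP-treated and 8 untreated peaks, with 0 one-list peaks in either. The directions of single genes changed, with 0 genes having fewer peaks with DOP and 3 having more. These were Htt (1 DOP-treated and 0 untreated peaks), Hip1r (2 and 1) and Dctn1 (3 and 2), while Zdhhc17 had 3 in each list. A window of 1 kb left 1 DOP-only and 1 untreated-only peak. Starts of protein-coding transcripts alone left 1 untreated-only peak, since the one at Hip1r lies near a start of another transcript form. Hip1r then had 3 DOP-treated and 2 untreated peaks instead of equal numbers, and 3 genes had more peaks with DOP. Calling peaks shared when centres lay within 500 bp left 1 untreated-only peak, and within 2 kb 0 DOP-only and 1 untreated-only peak. Requiring a reciprocal overlap of 50% instead gave 4 DOP-only and 2 untreated-only peaks. The Dctn1 peak 88 bp upstream of the gene, at percentile 56.9, then counted as DOP-only. Of the 54 summary counts under an alternative, 43 stayed within 1.5 times. Many of these counts are small, and a change from 2 to 3 stays within this limit. Of the 138 values of single genes, 121 were classed as the same and 15 as moved. With summed scores in place of the highest peak, added after the values were seen, the difference between the lists turned from 14.7 to -5.65 at Htt and from -1.10 to 0.78 at Zdhhc17. The cause was not tested. Depth is unknown, so what it limits could not be measured.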
